A study of Bos taurus with 2 samples.

Results

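The genes described here encode bone morphogenetic protein (BMP) ligands, the secreted proteins that bind and block them, and type I BMP receptors. They are BMP2, BMP4, BMP6, BMP7, GDF5, NOG, CHRD, GREM1, BMPR1A and BMPR1B, that is 10 of the 21162 protein-coding genes annotated on chromosomes 1 to 29 and X. They were listed by name and not ranked by a measured value, though earlier results of these data were known when they were chosen. Their CpG methylation was read in 2 samples of bone, both labelled as female Holstein cattle (Bos taurus), from a survey of tissue methylomes by whole-genome bisulfite sequencing. Bisulfite turns unmethylated cytosine into a base read as T, so each read over a CpG counts as a methylated or an unmethylated call. No treatment or genotype is labelled, and no age is given in the sources used here. Nor is it stated whether the samples, called bone sample 1 and bone sample 2, came from separate animals, so the spread between them may be technical. With 1 tissue there was no contrast of conditions, and each test below compares these libraries only. The labels do not say which part of a bone was taken, and such a sample can hold bone, cartilage, marrow and fat cells.

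BMPs are dimers of the TGF-beta family, first known for inducing bone when implanted in soft tissue. A ligand brings type I and type II serine/threonine kinase receptors together, and the type I receptor then phosphorylates SMAD1, SMAD5 and SMAD9, which enter the nucleus with SMAD4 and switch on genes such as ID1. Noggin, chordin and gremlin hold ligands away from their receptors, and their balance with the ligands shapes the skeleton, the joints and the marrow. In mammals most CpG sites are methylated, whereas dense clusters of them at gene starts are often not. Methylation in this report is not a measure of expression, which was not analysed in these samples.

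The strand of each gene was not given in the gene table at hand, so starts could not be told from ends. Both ends of each gene were therefore measured, from 1000 bp outside to 500 bp inside the gene. The end with at least 2 times the CpG sites of the other, and at least 20 sites, was called the CpG-rich end, a choice that used CpG positions and no calls. It need not be the start of the gene. Of all genes 13037 had such an end, among them 9 of the 10 BMP genes, all but GDF5. A level is the summed methylated calls of a region over all its calls, in percent, the weighted methylation level of the study. Bone sample 1 had 17.0 and bone sample 2 had 15.0 calls per CpG site on these chromosomes, with levels of 72.3% and 58.7% over the genome, and most gene bodies and 1 kb windows lay lower in bone sample 2. Of the CpG-rich ends, however, 7759 of the 12974 tested had the lower summed level in bone sample 1. The count was 2676 for an unweighted mean over sites. That mean dropped any site read under 5 times in either sample, so these counts rest on different sites. Their contrast does not show the effect of how sites are weighted alone. Calls were also spread differently over the genome. Of 582241763 calls bone sample 1 had 462047525 on these chromosomes, and of 440334436 calls bone sample 2 had 406703424. At the CpG-rich ends of the BMP genes the median calls per site were 13.2 for bone sample 1 and 4.83 for bone sample 2, and over all CpG-rich ends it was 18.2 and 7.41. Where calls are also spread differently over the sites of a region, a sum gives these sites different weights in each sample. Medians of calls per site do not show whether this is so. At the ends of BMP2, NOG, GREM1 and BMPR1A 0 sites were over 50% methylated, so no shift of calls to such sites was seen there. The ends and bodies were also compared within CpG sites, where a site is only compared with itself.

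Every CpG-rich end of these genes but that of CHRD was under 20% methylated in both bone samples, and those of NOG, BMPR1A and BMP2 were under 3%. The lowest was that of NOG, with a mean of 0.615% ± 0.167 (SD, n = 2), followed by BMPR1A at 0.694% ± 0.168, BMP2 at 1.73% ± 0.498 and GREM1 at 4.30% ± 1.67. BMPR1B followed at 5.80% ± 5.91, BMP4 at 6.25% ± 3.34, BMP6 at 9.04% ± 4.78 and BMP7 at 9.18% ± 2.99, and CHRD was highest at 27.7% ± 4.90. In this order NOG and BMPR1A differed by less than their spread, and so did each neighbouring pair from GREM1 to BMP7. At 8 of the 9 ends the level was under 20% in both samples, against 71.7% of the 12974 CpG-rich ends that passed the minimum of 20 calls in each sample. Over the BMP genes the medians for samples 1 and 2 were 3.12% and 7.06%, against 4.83% and 8.80% over all CpG-rich ends.

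**Figure D1:**
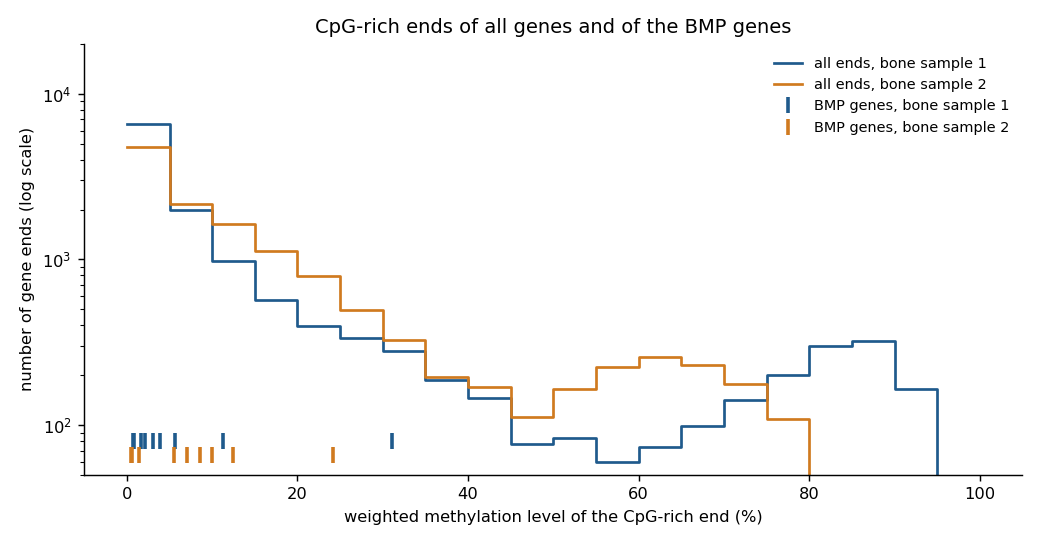
Weighted methylation level of CpG-rich ends (x, %) against the number of gene ends in steps of 5 percentage points (y, log scale), as 1 line for each bone sample, with short marks for the 9 BMP genes. In bone sample 1 all marks but CHRD at 31.1% lie at or under 11.3%, and in bone sample 2 all but CHRD at 24.2% lie at or under 12.4%.

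Summed calls were compared by Fisher's exact test, two-sided and with Benjamini-Hochberg adjustment over all CpG-rich ends. At a threshold of 0.05 on the adjusted p it called 6 of the 9 ends different. Of these, 2 were higher in bone sample 1 (BMP7 and CHRD), where the share of all ends called in that direction was 19.9%, and 4 were higher in bone sample 2 (BMP4, BMP6, GREM1 and BMPR1B), where it was 36.6%. When the null was the genome-wide odds ratio, 1.84, and not 1, 4 ends were called, the same 4 genes, all higher in bone sample 2 than that ratio gives, against 61.1% of all ends. None was called in the other direction, against 7.11%. Within CpG sites, an exact conditional test added after the data were seen, 3 were called, BMP4 and CHRD higher in bone sample 1 and GREM1 higher in bone sample 2, against 36.5% and 1.69% of all ends. BMP4 thus changed direction between the tests, with a call in each, and so did 1230 of the 12974 CpG-rich ends. Neighbouring CpG sites are often read on the same fragment, and all these tests count their calls as separate draws, which makes the p-values too small.

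**Figure D2:**
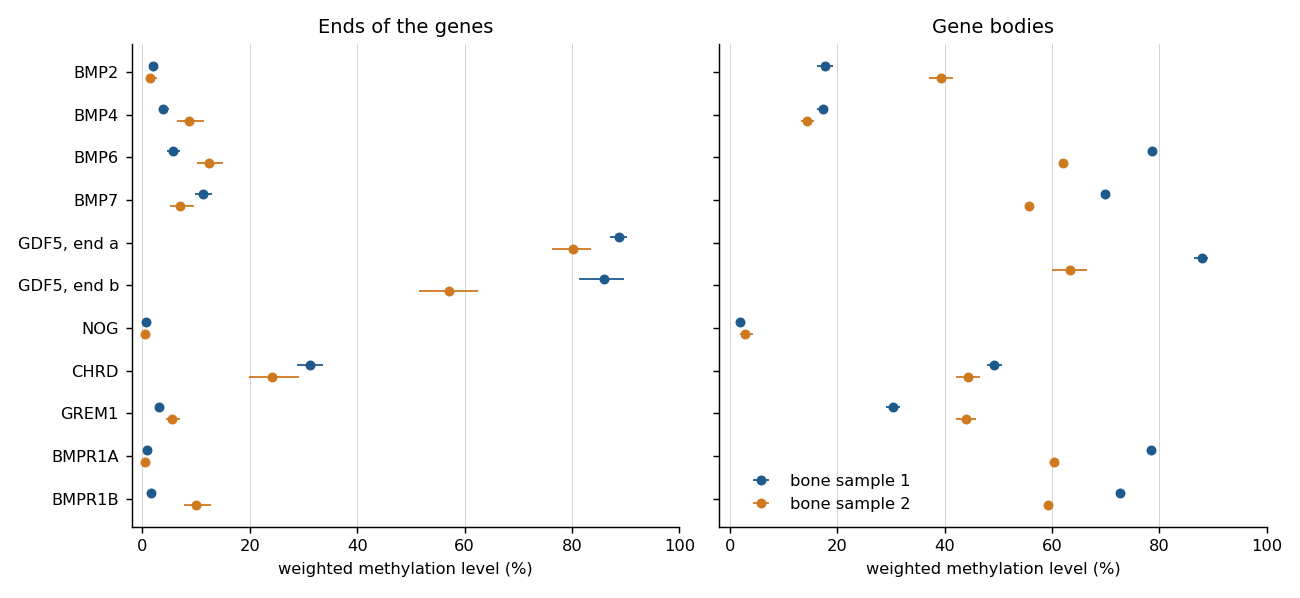
Weighted methylation level (x, %) of the CpG-rich ends and of the gene bodies of the 10 BMP genes (y), in bone sample 1 and bone sample 2, with bars for the 95% Wilson interval, which covers counting error only. For GDF5, which had no CpG-rich end, end a has the lower and end b the higher coordinate. All ends shown but those of CHRD and GDF5 lie under 20%, and most bodies lie above 40% and higher in bone sample 1.

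Among the ligands, BMP2, a strong inducer of osteoblasts, had the lowest CpG-rich end over this segment. From 500 bp outside to 500 bp inside the gene BMP6 was lower, at a mean of 0.900% against 1.82%. The CpG-rich end of BMP2 lies on chromosome 13 and holds 167 CpG sites, at 2.08% of 2790 calls (1.61 to 2.68%, the 95% Wilson interval) in bone sample 1 and 1.37% of 582 calls (0.698 to 2.69%) in bone sample 2. The difference was within these intervals (adjusted p = 0.429, Fisher's exact test), and within CpG sites it was 0.739 percentage points, bone sample 1 higher (adjusted p = 0.478, exact conditional test). It turned when fewer sites were taken, to -0.363 from 500 bp outside to 500 bp inside the gene. The 1 kb windows under 20% in both samples ran without a break for 3 kb there, at chr13:49151001-49154000 in the coordinates of the deposited counts (ARS-UCD1.2, as the submitters' processing notes name the build), with 269 sites at 2.57% and 1.77%. Blocks at least as wide were found at 17.1% of all CpG-rich ends. The next window into the gene rose to 11.4% and 20.3%, and the 6 windows farthest outside the gene were at 70.1 to 92.0% in bone sample 1 and 50.8 to 73.8% in bone sample 2. The largest difference near BMP2 was outside the gene, at chr13:49146001-49147000, where 6 sites were at 89.9% and 52.8%.

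BMP4, a ligand of early mesoderm and of skeletal patterning, lies on chromosome 10. Its CpG-rich end, with 53 sites, was at 3.89% of 1774 calls in bone sample 1 (3.08 to 4.89%) and 8.61% of 476 calls in bone sample 2 (6.41 to 11.5%), the higher level in bone sample 2 being called by Fisher's exact test (adjusted p = 1.77e-04). Within CpG sites the order turned, with bone sample 1 higher by 4.51 percentage points (adjusted p = 1.57e-04, exact conditional test). This call was lost with 1 site per 300 bp (13.8, adjusted p = 0.0700, exact conditional test). On summed calls the end stayed higher in bone sample 2 with at least 5 calls per site (-3.14, adjusted p = 0.0240, Fisher's exact test), and from 500 bp outside to 500 bp inside the gene it was not called (1.26, adjusted p = 0.40). The 3 sites of this end that were over 50% methylated took 1.01% of the calls of bone sample 1 and 13.4% of those of bone sample 2. Toward the gene, the unmethylated block ran for 5 kb at chr10:66521001-66526000, through 301 sites at 2.29% and 1.40%, a width reached at 1.92% of all CpG-rich ends. Its lowest window, chr10:66523001-66524000, held 0.430% of 1163 and 0.179% of 559 calls. The window at chr10:66519001-66520000, still inside the gene, was the highest at 89.0% and 83.7%. Low levels came back on both sides of the gene. About 7 kb outside the CpG-rich end, chr10:66532001-66533000 held 55 sites at 14.6% and 18.6%, and past the other end chr10:66516001-66517000 held 32 sites at 25.3% and 13.0%. The largest difference, 75.0% against 42.2%, was in the window between that one and the gene and rested on 20 calls in bone sample 1.

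BMP6, a ligand that regulates iron uptake through the liver and also induces bone, lies on chromosome 23. The 102 sites of its CpG-rich end were at 5.66% of 1343 calls (4.54 to 7.03%) in bone sample 1 and 12.4% of 717 calls (10.2 to 15.0%) in bone sample 2, called by Fisher's exact test (adjusted p = 8.58e-07). Within CpG sites the samples lay 0.840 percentage points apart, bone sample 1 higher, and the difference was not called (adjusted p = 0.546, exact conditional test). On summed calls it stayed called with at least 5 calls per site (-6.91, adjusted p = 8.30e-06, Fisher's exact test). Sites over 50% methylated, 10 in number, took 5.88% of the calls that bone sample 1 had there and 15.3% of those of bone sample 2. From 500 bp outside to 500 bp inside the gene, the mean level was 0.900% and the samples were not called different (-0.206, adjusted p = 0.952, Fisher's exact test). The block of low windows was 3 kb wide, chr23:47661001-47664000, with 286 sites at 1.65% and 2.97%, its lowest window being chr23:47661001-47662000 at 1.02% and 1.03%. A separate low window stood 3 kb outside the gene, at chr23:47666001-47667000, with 17 sites at 6.52% of 92 calls and 19.1% of 209 calls, between windows at 51.7% and 62.4% in bone sample 1. The highest window was at chr23:47668001-47669000, at 86.9% and 79.0%, and the largest difference at chr23:47655001-47656000 inside the gene, at 86.9% and 66.4%.

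BMP7, also called osteogenic protein 1, lies on chromosome 13. Its 112 sites were at 11.3% of 1523 calls (9.80 to 13.0%) in bone sample 1 and 7.06% of 524 calls (5.17 to 9.58%) in bone sample 2, higher in bone sample 1 by Fisher's exact test (adjusted p = 0.0114) and not called within CpG sites (adjusted p = 0.234, exact conditional test), where the difference was 1.71 percentage points. On summed calls it was not called with at least 5 calls per site (4.02, adjusted p = 0.150, Fisher's exact test), while with at least 10 it was (30.3, adjusted p = 0.0112), and the mean level moved to 51.5%. Of the 112 sites 40 had at least 5 calls in each sample, and fewer had at least 10, so these values describe a part of the end. Much of the level came from the outermost 500 bp, where 3 sites were at 73.6% of 91 and 50% of 12 calls and the next 2 at 81.6% of 76 and 47.8% of 23. From 500 bp outside to 500 bp inside, the mean level was 3.63% and the order turned, bone sample 1 minus bone sample 2 being -0.919 percentage points (adjusted p = 0.661, Fisher's exact test). The low block covered chr13:58889001-58892000, 244 sites at 4.93% and 5.20%. Its middle window was the lowest of the locus, at 1.32% and 2.27%. The highest, chr13:58886001-58887000, lay outside the gene at 93.6% and 75.9%, and the largest difference was 5 kb farther out, at chr13:58881001-58882000, with 83.3% against 44.4% over 6 sites.

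GDF5, a ligand of the joint-forming zone of the limb, stood apart from BMP2, BMP4, BMP6 and BMP7, since neither of its ends was low over the segment measured. Its ends held 48 and 38 sites, too alike for a CpG-rich end. The end with the lower coordinate was at 88.7% of 1460 calls (87.0 to 90.2%) in bone sample 1 and 80.1% of 468 calls (76.3 to 83.5%) in bone sample 2. The other was at 86.0% of 265 calls (81.4 to 89.7%) and 57.1% of 303 calls (51.5 to 62.5%). Both were called higher in bone sample 1 by Fisher's exact test (adjusted p = 1.44e-05 and 1.58e-13, over both ends of every gene) and within CpG sites (adjusted p = 0.00174 and 4.53e-15), where 54.7% and 61.2% of all ends were called in that direction and 15.3% and 1.05% in the other. None of the 22 windows tested around this gene was under 20% in both samples. The lowest was just outside the end with the higher coordinate, at chr13:64686001-64687000, where 10 sites were at 35.0% of 20 calls and 15.3% of 118 calls, 2 values that Fisher's exact test did not call different (adjusted p = 0.0780). Low levels lay just past the segment measured there. From 1250 to 1000 bp outside that end, 5 sites were at 18.2% of 11 calls and 3.39% of 59 calls. From 1500 to 1250 bp outside, 2 sites were at 0% of 2 calls and 0% of 27 calls. The highest window held the lower end, at chr13:64681001-64682000, at 91.1% and 83.8%. The largest difference, within the gene at chr13:64684001-64685000, was 90.5% against 53.1% over 19 sites (adjusted p = 7.05e-12, Fisher's exact test), and 43.5 percentage points within CpG sites (adjusted p = 1.72e-13, exact conditional test).

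**Figure D3:**
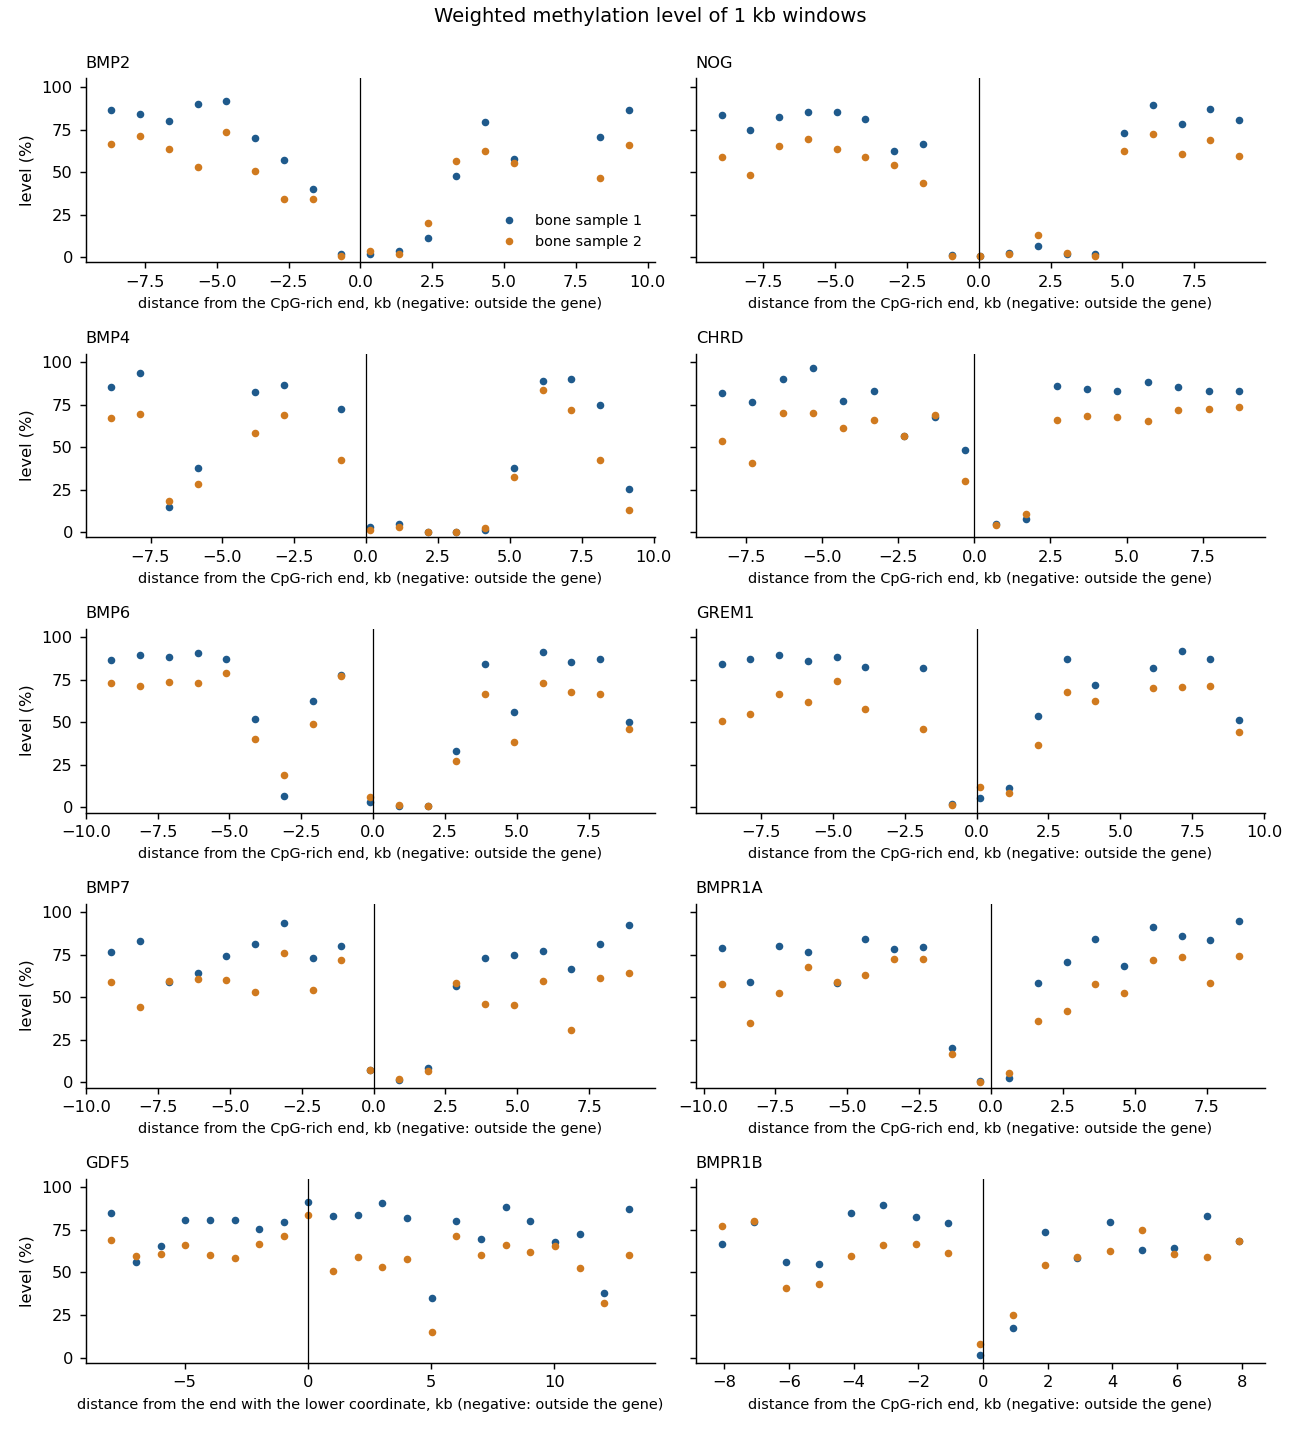
Weighted methylation level (y, %) of 1 kb windows (those that reached 20 calls in each sample), by the distance of their centre from the CpG-rich end (x, kb, negative outside the gene), in 1 panel for each BMP gene. For GDF5 the distance is from the end with the lower coordinate. Levels drop to near 0 at or next to 0 kb in 9 panels, over 1 kb for BMPR1B and 6 kb for NOG, and stay high through the GDF5 gene.

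Of the antagonists among the 10 BMP genes, NOG had the least methylated CpG-rich end. It encodes noggin, which covers the receptor-binding faces of BMP dimers. On chromosome 19, its CpG-rich end held 170 sites at 0.733% of 2183 calls (0.452 to 1.19%) and 0.497% of 604 calls (0.169 to 1.45%), a difference within the intervals (adjusted p = 0.857, Fisher's exact test) and of 0.133 percentage points within CpG sites (adjusted p = 1, exact conditional test). NOG was the only BMP gene whose other end was also low, at 2.76% of 399 calls and 9.28% of 431 calls. The higher level of that end in bone sample 2 was called on summed calls (adjusted p = 1.68e-04) and not within CpG sites (adjusted p = 0.327, exact conditional test). The low block took in the whole gene and ran for 6 kb, chr19:7387001-7393000, with 442 sites at 1.60% and 2.39%, a width reached at 0.951% of all CpG-rich ends. The lowest window was chr19:7388001-7389000 at 0.805% and 0.477%. Just past the block the levels were high again, with the highest window at chr19:7394001-7395000, at 89.2% and 72.2%. The largest difference was 74.7% against 48.5%, in chr19:7380001-7381000, 8 kb outside the gene.

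CHRD encodes chordin, which binds BMPs until it is cut by tolloid proteases, and its CpG-rich end on chromosome 1 was the only one over 20%. It was at 31.1% of 1365 calls (28.7 to 33.6%) in bone sample 1 and 24.2% of 314 calls (19.8 to 29.2%) in bone sample 2. The end was higher in bone sample 1 by Fisher's exact test (adjusted p = 0.0309) and within CpG sites (adjusted p = 1.02e-08, exact conditional test), by 13.0 percentage points. In bone sample 2 it was thinly read, with 2.42 calls per site and none at 27 of its 130 sites. The methylation lay on 1 side of the end. From 500 to 250 bp outside the gene 15 sites were at 76.2% and 47.7%, whereas in the next 250 bp up to the gene 38 sites were at 0.971% and 4.29%. In the first 250 bp inside the gene no call was methylated, of 158 calls and of 29, which allows levels of up to 1.90% and 10.3%. With less of the outside taken, from 500 bp outside to 500 bp inside, the mean level of the end was 14.5%, and the difference, 5.82 percentage points, was not called (adjusted p = 0.124, Fisher's exact test). Nor was it called with 1 site per 300 bp (17.5, adjusted p = 0.0814, exact conditional test). The level itself rose when thinly read sites were left out, to 56.4% with at least 5 and 61.3% with at least 10 calls per site. The unweighted mean over sites with at least 5 calls was 50.5%, with a difference of 24.5. Of the 130 sites only 11 had at least 5 calls in each sample, so these values describe a small part of the end. In the 250 bp steps from 250 bp outside to 500 bp inside the gene, levels were at or under 4.29%. There bone sample 2 had 1.84, 0.806 and 1.91 calls per site. The low block lay inside the gene and was 2 kb wide, chr1:82811001-82813000, with 132 sites at 6.19% and 7.22%. The lowest window was chr1:82812001-82813000, at 4.73% and 4.02%, the highest chr1:82818001-82819000, at 96.2% and 69.9%. The largest difference, 76.6% against 40.9%, was in the window at chr1:82820001-82821000, 7 kb outside the gene, with 17 sites (adjusted p = 1.00e-16, Fisher's exact test), and 37.2 percentage points within CpG sites (adjusted p = 4.33e-17, exact conditional test).

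GREM1 encodes gremlin 1, a DAN-family antagonist that also marks skeletal stem cells of the growth plate and marrow in the mouse. Its CpG-rich end on chromosome 10, with 139 sites, was at 3.12% of 1764 calls (2.40 to 4.04%) in bone sample 1 and 5.48% of 1187 calls (4.32 to 6.92%) in bone sample 2. Among the 9 ends it was the only one called higher in bone sample 2 both by Fisher's exact test (adjusted p = 0.00371) and within CpG sites (adjusted p = 2.18e-07, exact conditional test), where the difference was 4.73 percentage points. Over all genes 207 of the 12974 CpG-rich ends were called higher in bone sample 2 by both tests. The widest gap between the samples lay in the 500 bp around the gene's end, a stretch chosen after its values were seen. There, 64 sites were at 2.17% of 966 calls and 17.0% of 224 calls. The 38 methylated calls of bone sample 2 sat on 38 different sites, no site having more than 1, within 319 bp. Counts do not tell on how many fragments these calls lay. In the rest of the end the samples were at 4.26% and 2.80%. Within CpG sites the difference of that rest, bone sample 1 minus bone sample 2, was -0.0613 percentage points, which was not tested. From 500 bp outside to 500 bp inside the gene, the end was again called higher in bone sample 2 (-5.07 percentage points, adjusted p = 2.37e-05, Fisher's exact test). When thinly read sites were left out the order turned and the end was not called, bone sample 1 being higher by 1.69 percentage points with at least 5 calls per site (adjusted p = 0.124, Fisher's exact test) and by 2.83 with at least 10 (adjusted p = 0.175). With 1 site per 300 bp the difference was -3.63 and not called (adjusted p = 0.732, exact conditional test), and the unweighted difference was -0.209. The low block was 3 kb wide, chr10:29977001-29980000, with 238 sites at 7.77% and 6.35%, and its outer window, chr10:29979001-29980000, was the lowest at 2.22% and 1.54%. The largest difference stood just outside it, at chr10:29980001-29981000, where 7 sites were at 81.6% and 46.2%, and the highest window was chr10:29983001-29984000, at 88.1% and 74.5%.

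**Figure D4:**
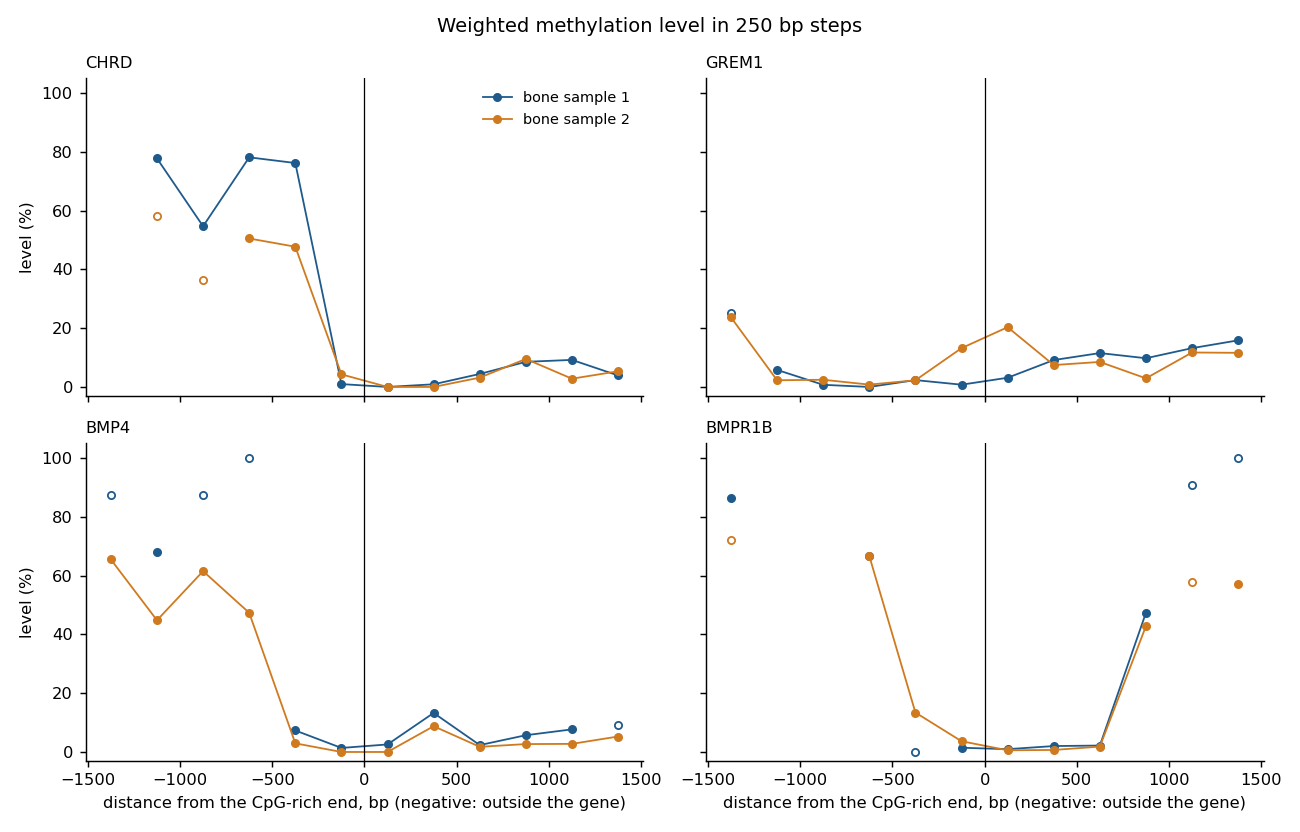
Weighted methylation level (y, %) in steps of 250 bp from 1500 bp outside (negative) to 1500 bp inside the CpG-rich end (x) of CHRD, GREM1, BMP4 and BMPR1B, with 1 colour for each bone sample. Open points rest on under 20 calls and are not joined. CHRD falls from 76.2% to 0.971% in bone sample 1 between neighbouring steps outside the gene, and in the 2 steps next to 0 bp GREM1 is at 13.2% and 20.3% in bone sample 2, against 0.767% and 3.13% in bone sample 1.

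BMPR1A and BMPR1B, the type I receptors among the BMP genes described here, had CpG-rich ends at or under 10%. BMPR1A, a receptor of BMP2 and BMP4 with a broad expression, lies on chromosome 28. Its 180 sites were at 0.813% of 2337 calls (0.521 to 1.27%) and 0.575% of 869 calls (0.246 to 1.34%), a difference within the intervals (adjusted p = 0.744, Fisher's exact test) and of 0.354 percentage points within CpG sites (adjusted p = 0.643, exact conditional test). The low block was 2 kb wide, chr28:41403001-41405000, with 201 sites at 1.32% and 3.38%. Its outer window was the lowest, at 0.616% and 0.364%. The highest was inside the gene at chr28:41412001-41413000, at 94.6% and 74.5%, and the largest difference 6 kb nearer to the end, at chr28:41406001-41407000, at 71.0% and 41.9%.

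BMPR1B, the receptor that GDF5 prefers and that limb cartilage needs, lies on chromosome 6. It had the largest ratio of levels among the ends, with 107 sites at 1.62% of 1917 calls (1.14 to 2.29%) in bone sample 1 and 9.98% of 541 calls (7.73 to 12.8%) in the other sample (adjusted p = 6.43e-16, Fisher's exact test). Within CpG sites the samples differed by 0.508 percentage points, bone sample 1 higher, and were not called (adjusted p = 0.826, exact conditional test). On summed calls from 500 bp outside to 500 bp inside the gene it was still called higher in bone sample 2 (-2.0 percentage points, adjusted p = 0.0211, Fisher's exact test), and with at least 5 calls per site it turned and was not called (1.32, adjusted p = 0.348). Of the calls of this end, bone sample 1 had 0.469% and bone sample 2 had 10.5% on 3 sites over 50% methylated, which lie from 750 to 500 bp outside the gene, and 15 sites had no call in bone sample 1. In the first 250 bp inside the gene, 45 sites were at 0.955% of 1152 calls and 0.575% of 174. Its low block was the narrowest, the single window chr6:29820001-29821000 with 99 sites at 1.32% and 8.06%, and 82.6% of all CpG-rich ends had one as wide. The highest window, chr6:29827001-29828000, was at 79.6% and 80.3%, and the largest difference at chr6:29824001-29825000, at 85.1% and 59.8%, both outside the gene.

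Gene bodies of the BMP genes ranged in bone sample 1 from 1.83% at NOG to 87.9% at GDF5, on either side of the genome's 72.3%. The long bodies were high and lay higher in bone sample 1. BMP6 was at 78.6% and 62.1%, BMPR1A at 78.5% and 60.5%, BMPR1B at 72.6% and 59.2%, and BMP7 at 69.9% and 55.7%. The short GDF5 was higher still in bone sample 1, at 87.9% and 63.4%. CHRD was intermediate at 49.3% and 44.4%, while BMP4 was at 17.3% and 14.4%, and the body of NOG, which lies in its low block, at 1.83% and 2.89%. The bodies of BMP2, at 17.8% and 39.3%, and GREM1, at 30.4% and 43.9%, also had the higher level in bone sample 2. Over all genes the median body was at 72.1% and 58.8%, against 59.6% and 50.04% over the BMP genes.

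Fisher's exact test called 9 of the 10 bodies, 7 higher in bone sample 1, against 76.3% of all bodies, and 2 (BMP2 and GREM1) higher in bone sample 2, against 14.2%. With at least 5 calls per site the bodies of CHRD (2.10, adjusted p = 0.198) and BMP4 (0.932, adjusted p = 0.325) were no longer called by Fisher's exact test, and with at least 10 that of GREM1 turned and was not called (3.79, adjusted p = 0.0738). With at least 5 calls, 5 bodies were called higher in bone sample 1 and 2 higher in bone sample 2, against 17000 and 1881 over all genes. With at least 10 these were 6 and 1, against 17664 and 662, so a call lost at 5 came back at 10. The numbers of bodies still tested under these filters are not given here, so these are counts and not shares. The body of NOG was not called (adjusted p = 0.0788, Fisher's exact test). Against the genome-wide odds ratio, 3 were called above it, against 36.2% of all bodies, and 5 below it, against 43.5%. Within CpG sites, by the Mantel-Haenszel test, the same 9 were called, all of them higher in bone sample 1, against 94.5% of all bodies, with 0.290% called in the other direction. BMP2 and GREM1 thus turned, with a call in each direction, and so did 2603 of the 21007 bodies tested. For BMP2 the call within sites was lost with 1 site per 300 bp (5.44, adjusted p = 0.161), and on summed calls the body stayed higher in bone sample 2 with at least 5 and at least 10 calls per site (-13.6 and -10.7, adjusted p = 7.90e-15 and 0.0217, Fisher's exact test). Within sites BMP2 was higher in bone sample 1 by 5.48 percentage points and GREM1 by 7.81, while CHRD differed by 8.35 and BMP4 by 2.96. The 5 bodies over 60% in bone sample 1 differed by 15.4 (BMPR1B), 17.0 (BMP6), 17.4 (BMP7), 18.1 (BMPR1A) and 22.9 (GDF5).

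**Figure D5:**
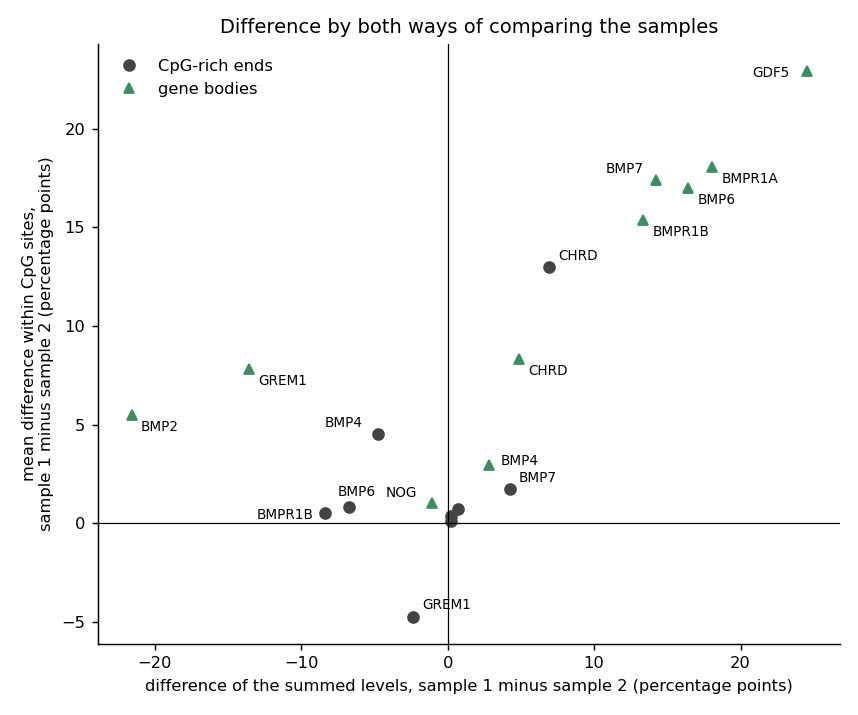
Bone sample 1 minus bone sample 2, in percentage points, from summed calls (x) and as the mean within CpG sites (y), for the CpG-rich ends (circles) and bodies (triangles) of the BMP genes. Points at the upper left, among them the BMP2 body at -21.6 and 5.48 and the BMPR1B end at -8.36 and 0.508, change direction between the measures, and GREM1 has the lowest end on the y axis.

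Most of the 1 kb windows called different within 10 kb of the ends were higher in bone sample 1. Of 194 windows 184 reached 20 calls in each sample, and 30 were under 20% in both (16.3%, against 1.5% of the windows of the genome), 6 each at BMP4 and NOG and none at GDF5. The BMP windows were taken around gene ends, mostly CpG-rich ones, with a median of 13 sites, against 9 over the genome. This share and those below are therefore not like for like with the genome's. The shares around all CpG-rich ends were not computed. Fisher's exact test called 102 windows higher in bone sample 1, where it called 64.8% of the 2189146 windows of the genome, and 7 higher in bone sample 2, where it called 0.977%. Against the genome-wide odds ratio, 27 were above it, against 16.7% of windows, and 13 below it, against 3.82%. Within CpG sites, 103 were higher in bone sample 1, against 62.6%, and 1 was higher in bone sample 2, against 0.364%. That window is the one over the end of GREM1, chr10:29978001-29979000, at 5.38% and 11.8% (adjusted p = 6.47e-05, exact conditional test), which holds the stretch of single methylated calls described above. BMPR1B had the fewest windows called within sites, 3 of 17, and BMP7 the most, 14 of 19.

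Most other genes of the BMP pathway also had a low CpG-rich end. Of 61 genes listed by role 60 were found in the gene table, 42 had a CpG-rich end, and 38 of these were under 20% in both samples, against 71.7% of all CpG-rich ends. Fisher's exact test called 8 ends higher in bone sample 1, against 19.9% of all ends, and 16 higher in bone sample 2, against 36.6%. Within CpG sites 9 were called higher in bone sample 1, against 36.5%, and 2 higher in bone sample 2, against 1.69%. Against the genome-wide odds ratio 3 were called above it, against 7.11%, and 25 below it, against 61.1%. The medians were 2.64% and 5.78%. Whether the pathway's ends differ from those of other genes was not tested.

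Of 13 further ligands listed, 6 had a CpG-rich end. All 6 were low, from BMP3, an atypical ligand that opposes osteogenic BMPs, at 1.30% and 3.43%, to BMP8B at 13.1% and 13.5%. BMP5, BMP10, BMP15, GDF2, GDF7, GDF9 and GDF15 had no such end, and levels of their ends are not given here. BMP3 was called higher in bone sample 2 within sites too (adjusted p = 0.0113, exact conditional test), by 2.03 percentage points. GDF6, a close relative of GDF5, was at 9.50% and 2.19%, higher in bone sample 1 by both tests, and the only ligand called above the genome-wide odds ratio. BMP3, GDF6 and GDF10 (5.05% and 8.55%) had the largest differences of summed levels among the ligands called against that ratio, BMP3 and GDF10 below it. Within sites GDF10 turned, with bone sample 1 higher by 2.04 percentage points, and was not called (adjusted p = 0.236, exact conditional test).

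Among 8 further receptors and coreceptors with a CpG-rich end, of 9 listed, the type II receptor ACVR2A was lowest, at 0.408% and 0.528%. ACVRL1, a receptor of endothelial cells, was highest, at 27.5% and 22.6%. ENG, an endothelial coreceptor, was at 16.7% and 5.40% and was called higher in bone sample 1 by both tests (adjusted p = 3.68e-06 within sites, exact conditional test). RGMB, at 9.21% and 18.5%, and ACVR2B, at 1.96% and 7.31%, were called higher in bone sample 2 on summed calls only.

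Of 18 further antagonists and modulators listed, 12 had a CpG-rich end. Of these 10 were under 20% in both samples, the lowest being CRIM1, at 0.548% and 0 of 708 calls, which allows up to 0.424%. The other 2 were DAND5, the highest, at 77.8% and 67.4% over 25 sites, and CHRDL1, a relative of chordin on the X chromosome, at 39.9% and 31.2%. FSTL3, at 4.28% and 17.0%, BMPER, at 0.894% and 12.7%, and CHRDL1 had the largest differences among those called against the genome-wide odds ratio, and all 3 lay below it. For CHRDL1 this means that bone sample 1 was higher by less than the ratio gives. BMPER was called higher in bone sample 2 within sites as well, by 4.28 percentage points (adjusted p = 0.00389, exact conditional test), and CHRDL1 higher in bone sample 1 by 13.5 (adjusted p = 9.15e-06). FSTL3 turned within sites, bone sample 1 being higher by 1.31, and was not called (adjusted p = 0.722, exact conditional test).

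Of 9 SMADs and their regulators listed, 8 had a CpG-rich end. SMAD7, an inhibitory SMAD, was lowest of these, at 0.360% and 0.541%, and SKI, a repressor of SMAD signalling, highest, at 84.2% and 55.9% over 32 sites. SKI and DAND5 show that a CpG-rich end can be methylated, and which end of the gene it is was not known. SKI, SMAD5, at 2.40% and 8.70%, and SMAD1, at 0.768% and 6.39%, had the largest differences among those called against the genome-wide odds ratio, SKI above it and the SMADs below. Within sites SKI was higher in bone sample 1 by 29.2 percentage points and SMAD5 by 2.61, the latter turned from its summed calls, while SMAD1 was not called (adjusted p = 0.931, exact conditional test). All 8 target genes with a CpG-rich end were under 20%, from HEY1, at 0.507% and 0.220%, to ID4, at 4.55% and 8.78%. SP7, the osteoblast factor osterix, at 2.04% and 10.2%, MSX1, at 3.39% and 9.41%, and DLX5, at 2.83% and 7.85%, differed most among those called against the genome-wide ratio, all below it, and none of the targets was called within sites.

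The cell types held by the bone samples could not be read from these ends. Of 31 marker genes of osteoblasts, cartilage cells, osteoclasts, white and red blood cells and fat cells, 10 had a CpG-rich end. Osteoblast markers were at 2.04% and 10.2% (SP7) and 11.6% and 5.49% (COL1A2), and 3 of 4 cartilage markers were under 20% in both samples, with COL2A1, the collagen of cartilage, at 2.46% and 2.07%. Of 2 osteoclast markers ACP5 was at 3.48% and 4.95% and TNFRSF11A at 19.9% and 27.7%. The blood markers with such an end were intermediate, PTPRC of white cells at 34.3% and 42.1% over 23 sites and EPOR of the red lineage at 30.3% and 17.7%, and no fat marker had one. Within sites, 3 of the 10 (MATN3, TNFRSF11A and EPOR) were called higher in bone sample 1, against 36.5% of all ends, and none higher in bone sample 2, against 1.69%. TNFRSF11A was called the other way on summed calls (adjusted p = 3.26e-04, Fisher's exact test). What part a different mixture of cells had in the differences between the samples was not tested.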

How the data were processed

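For each bone sample the authors deposited counts, namely how many calls at each CpG cytosine were methylated and how many were not, with no normalization. The submitters' processing notes name FastQC 0.11.5, Trim Galore 0.4.5, Bowtie2, Bismark 0.19.0 and ARS-UCD1.2, and the study's methods name other versions and the UMD3.1.1 build, so how these counts were made is known in part. Duplicate reads were removed. The strands were merged, which gave 27138930 CpG sites with 462047525 calls for bone sample 1 and 406703424 for bone sample 2. Genes came from RefSeq on ARS-UCD2.0. The mean profile of CpG density around gene ends, taken from the counts' positions, was compared between each chromosome and all others. It correlated best at no shift on 30 of 30 chromosomes, and so did that of the 60 nearest genes of each BMP gene against all other genes. Such a comparison cannot show a shift shared by the whole genome. The profiles average both ends of a gene facing inward, which a shift moves in opposite directions, so a local shift can also be missed. The planned promoters need strand and were replaced by CpG-rich ends.

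Regions had at least 20 calls in each sample. Summed calls were compared by Fisher's exact test, and by the exact test against the genome-wide odds ratio, and calls within sites by the exact conditional test or, for bodies and a few regions with many calls, the Mantel-Haenszel test, each with Benjamini-Hochberg adjustment. The within-site difference is the mean over sites, each weighted by n1 × n2 / (n1 + n2) calls. On simulated calls, with the real calls per site and equal site levels in both samples except at a set of changed ends, the test on summed calls also called many unchanged ends and the test within sites few. The simulated calls were drawn independently at each site, as the test within sites assumes, so its few false calls were built in. How either test does on calls that share a fragment was not tested. The changed ends were of intermediate level, unlike most CpG-rich ends of the BMP genes. Wilson intervals are at 95%, and a count of 0 allows 3 calls of the total. Intervals and limits cover counting error only. The BMP genes and gene lists, the CpG-rich ends and the within-site tests were chosen with earlier results of these data known. All BMP genes are named, with their lowest, highest and most different windows by summed level, and of each pathway role the lowest and highest genes and up to 3 called against the genome-wide odds ratio. The marker genes named were chosen after their values were seen. Python 3.11.15, numpy 2.4.6, scipy 1.17.1, numba 0.67.0 and pandas 2.3.3 were used.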

Additional observations from a re-analysis of the deposited data

How the results depend on the processing

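No paired analysis was possible because there was 1 group of 2 samples. Starts of transcripts could not be used as an alternative, since neither strand nor transcripts were at hand. The within-site test, 1 site per 300 bp and other cuts for the CpG-rich end were chosen after seeing the data.

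Under the alternatives 69 counts stayed within 1.5 times the one reported and 28 did not. Single levels stayed within 1 SD in 145 cases and moved in 19, among them, with at least 10 calls per site, CHRD's end to 61.3% and BMP7's to 51.5%. Both of these rest on the sites that had enough calls in each sample and not on the whole end. The 145 include the levels with either sample left out. With n = 2 these always lie within 1 SD of the mean, so they say nothing about stability. The ends called different, 6 against 7336 over all genes, were 3 with at least 5 calls per site and 2 with at least 10. From 500 bp outside to 500 bp inside they were 2, within sites 3, and 0 both with 1 site per 300 bp and with a difference of at least 20 percentage points. Over all genes 2782 ends were called higher in bone sample 1 and 3007 higher in bone sample 2 with at least 5 calls per site. Within sites 4954 ends were called over all genes, and the totals for the other settings are given below. Against the genome-wide odds ratio the 4 ends were 2 with at least 5 calls per site and 0 with at least 10 or 20 percentage points. Totals over all regions against that ratio are not given here for these settings, so its counts cannot be set against a share. With at least 10 calls per site, ends under 20% were 3 (the pathway, 20), the pathway's differing ends 5, all differing ends 3287, windows that differed 72, windows under 20% 15 and windows called against the ratio 15, since fewer sites remained. Windows of the genome called higher in bone sample 1 then fell from 1418959 to 982545, and those higher in bone sample 2 from 21392 to 8702. With the narrower end the pathway had 9 and all genes 3563 differing ends. With 20 percentage points these were 1 and 772, the bodies 2 by either test, and the windows 56 and 23. Within sites the pathway had 11. With 1 site per 300 bp the pathway had 1 differing end, all genes 808, and the BMP genes 36 differing windows.

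Single differences that turned, as bone sample 1 minus bone sample 2 in percentage points, were as follows. BMPR1B's end was at 1.32 with at least 5 calls per site, 0.508 within sites, 1.29 with 1 site per 300 bp and 1.74 unweighted, and kept its call at -2.0 with the narrower end. BMP4's end was at 5.26 with at least 10 calls, 1.26 with the narrower end, 4.51 within sites, 13.8 with 1 site per 300 bp and 4.47 unweighted, and kept its call at -3.14 with at least 5. BMP6's end was at 0.840 within sites and 0.821 unweighted. BMP7's narrower end was at -0.919. BMP2's end was at -0.363 with the narrower end and -1.91 with 1 site per 300 bp, NOG's at -0.297 with at least 5 calls and -0.352 unweighted, and BMPR1A's at -0.212 and -0.496, none of them called in any setting given here. GREM1's end was at 1.69 with at least 5 calls and 2.83 with at least 10, and kept its call at -5.07 with the narrower end, and its body at 3.79 with at least 10, 7.81 within sites, 16.3 with 1 site per 300 bp and 8.17 unweighted. NOG's body, not called either, was at 0.369 with at least 5 calls, 7.84 with at least 10, 1.04 within sites, 5.88 with 1 site per 300 bp and 0.732 unweighted. BMP2's body was at 5.48 within sites, 5.44 with 1 site per 300 bp and 7.06 unweighted, and kept its call at -13.6 with at least 5 and -10.7 with at least 10 calls. A further 11 differences lost their call, among them the bodies of CHRD (2.10) and BMP4 (0.932) with at least 5 calls, 2 moved (unweighted, CHRD's end to 24.5 and GREM1's to -0.209), and 119 did not turn and stayed on their side of the threshold where they were tested. The cause of these shifts was not tested. Depth limits the dense ends in bone sample 2, where CHRD had 2.42 calls per site.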
